A study of Mus musculus with 2 samples.

Results

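The 9 genes described here encode enzymes of serine synthesis (Phgdh, Psat1 and Psph), of the mitochondrial folate pathway (Shmt2, Mthfd2 and Mthfd1l), of its cytosolic counterpart (Shmt1 and Mthfd1), and thymidylate synthase (Tyms). They were chosen by name, as enzymes of connected reactions, and each was found by its Ensembl identifier in the gene table of both libraries, where they are 9 of 43346 mouse gene rows. The samples were 2 livers of B6NCrl mouse embryos at embryonic day 14.5, labelled as biological replicates 1 and 2, with no treatment or mutation in the labels. The labels call each sample a single liver but list its sex as male and female pooled, and they give the replicates different collection days. Total RNA longer than 200 nucleotides was sequenced with spike-in controls, starting from 10 ng. There was 1 group and no control group, so the livers were described and compared with each other without a test.

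Cells make serine from an intermediate of glycolysis, and serine is the main donor of the single carbon units that folate carries. In mitochondria these units are taken from serine and released as formate, which crosses to the cytosol and is loaded onto folate again. There they are used to make purines, to remethylate homocysteine, and, through thymidylate synthase, to make the thymine nucleotide of DNA. The fetal liver is both an organ of metabolism and, at this stage, the main site of red cell formation, and mouse embryos without Mthfd2 are known to die before birth with impaired blood formation in the liver.

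The estimated reads added to 39998450 in replicate 1 and 28848861 in replicate 2. Levels are given as TPM, the length-scaled share of all transcripts, in which reads are divided by transcript length, so that levels of different genes can be set side by side. A level of 1 TPM or more in both livers, reached by 11323 genes, is called detected, and the median mean level of these genes was 9.68 TPM. The labelled tissue was checked against marker genes of its cells. All 5 hepatocyte markers and all 5 red cell markers were detected, among them Afp at 6417 and 6856 TPM and Klf1 at 425 and 463 TPM in replicates 1 and 2. None of 5 markers of other tissues was detected in both livers, and Neurod1 and Myh6 were listed at 0 in both. In whole tissue, fewer cells of a type and less RNA per cell cannot be told apart.

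All 9 enzyme genes were detected in both livers, and all 9 stood above the median of detected genes. The lowest estimated read count of any of them in a library was 1794 and the highest 12646, so counting error was small. Mean levels ran over 3 tiers, with Phgdh, Tyms and Psat1 above 100 TPM, then Mthfd1, Shmt2, Psph and Mthfd2 between 50.4 and 66.0 TPM, then Shmt1 and Mthfd1l. Neighbours in this order were separated in both livers for 5 of 8 neighbouring pairs. The ranges of the livers overlapped between Phgdh and Tyms, between Mthfd1 and Shmt2, and between Shmt2 and Psph. Summed over the 9 genes, replicate 1 gave 747 TPM and replicate 2 gave 744 TPM, which is 0.0834% and 0.0824% of the TPM of all mouse genes.

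**Figure D1:**
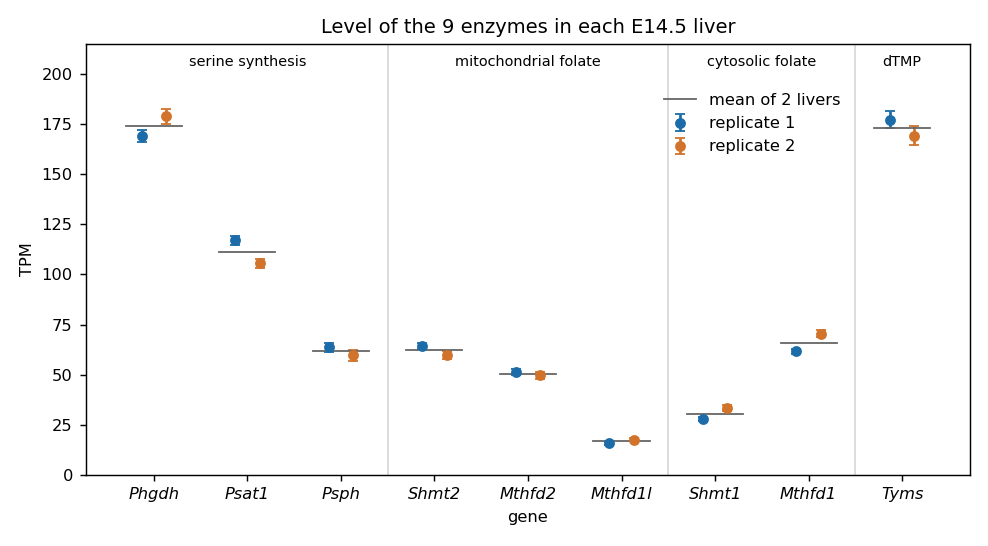
Level of each of the 9 enzyme genes in TPM on a linear axis, with 1 point per liver, a line at the mean of the 2 livers, exact 95% Poisson intervals as error bars for counting error only, and genes grouped by the step they serve (dTMP stands for thymidylate synthesis). Phgdh, Tyms and Psat1 lie above 100 TPM in both livers and Mthfd1l is lowest, at 15.69 and 17.57 TPM.

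The start regions of 4 of the genes are shown because they span the tiers and both compartments: Mthfd2, whose window holds the most matches to the box CCAAT, Psat1 of the highest tier, and the paralogues Shmt2 and Shmt1, which differ in that box. Each is the 250 bases before the RefSeq gene start on GRCm38.p6, read on the strand of the gene, with the box in capitals on either strand.
Mthfd2, chr6:83317605-83317854, minus strand: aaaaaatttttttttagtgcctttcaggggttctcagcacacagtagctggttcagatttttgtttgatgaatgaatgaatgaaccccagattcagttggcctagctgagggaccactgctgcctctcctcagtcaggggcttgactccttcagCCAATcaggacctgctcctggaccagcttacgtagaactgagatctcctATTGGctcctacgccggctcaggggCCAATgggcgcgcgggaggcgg
Psat1, chr19:15925060-15925309, minus strand: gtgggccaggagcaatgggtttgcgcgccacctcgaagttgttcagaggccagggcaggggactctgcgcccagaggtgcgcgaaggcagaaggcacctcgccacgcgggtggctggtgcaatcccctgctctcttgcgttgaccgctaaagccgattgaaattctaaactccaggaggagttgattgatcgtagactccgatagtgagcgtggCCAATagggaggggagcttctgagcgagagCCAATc
Shmt2, chr10:127522445-127522694, minus strand: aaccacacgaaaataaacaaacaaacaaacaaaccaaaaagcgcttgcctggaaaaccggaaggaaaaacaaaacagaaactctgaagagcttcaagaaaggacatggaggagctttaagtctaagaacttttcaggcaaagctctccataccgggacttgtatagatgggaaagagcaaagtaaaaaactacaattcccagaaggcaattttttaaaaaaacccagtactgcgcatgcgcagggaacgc
Shmt1, chr11:60811266-60811515, minus strand: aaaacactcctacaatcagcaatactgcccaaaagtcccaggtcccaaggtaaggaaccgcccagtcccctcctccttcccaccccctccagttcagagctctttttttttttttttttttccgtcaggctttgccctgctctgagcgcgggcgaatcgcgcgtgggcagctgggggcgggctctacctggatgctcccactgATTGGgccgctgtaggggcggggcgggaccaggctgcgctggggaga
CCAAT, searched on both strands, occurred 3 times in the Mthfd2 window, 2 times in the Psat1 window, 1 time in the Shmt1 window and not in the Shmt2 window. The 9 genes have 10 windows in RefSeq, since Psat1 has a second start, and 6 of the 10 held at least 1 match, those of Phgdh, Psph, Mthfd2, Shmt1, Mthfd1 and the first of Psat1. Among all 32851 mouse windows of that length, 33.85% held a match and 2.79% held 3 or more, as Mthfd2 did. Since Mthfd2 was picked for having the most matches, the 2.79% does not measure how unusual its window is. GGGCGG, a box known as a site of Sp1, was in 6 of the 10 windows and in 32.7% of all windows. CACGTG, the E-box that Myc is known to bind, was in 1 window, that of Tyms, and in 6.02% of all windows. GATAA, the core known for GATA factors of red cells, was in none of the 10 and in 22.6% of all windows. The core TGACGT was in the Mthfd1l window and in 6.47% of all windows, and TGATGCA, an element known to bind Atf4, was in none of the 10 and in 2.68% of all. All 6 motifs were searched on both strands, and no searched motif contains another. A match of letters is not a binding site, and the absence of letters in this window says nothing of the factor.

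The 3 enzymes of serine synthesis stood at different levels, with the first step highest. Phgdh (ENSMUSG00000053398.7, chr3:98313170-98339990), the dehydrogenase that commits a glycolytic intermediate to serine, had 168.88 TPM in replicate 1 and 178.83 TPM in replicate 2. Its mean of 174 ± 7.0 TPM (SD, n = 2) placed it 521st of 11323 detected genes. Psat1 (ENSMUSG00000024640.5, chr19:15904678-15947337), the aminotransferase of the next step, had 116.94 and 105.51 TPM in replicates 1 and 2, a mean of 111 ± 8.1 TPM. Psph (ENSMUSG00000029446.10, chr5:129765558-129787449), the phosphatase that releases serine, had 63.64 and 59.60 TPM, a mean of 61.6 ± 2.9 TPM. The order Phgdh, Psat1, Psph held in both livers. The ratio of Psat1 to Phgdh was 0.692 in replicate 1, with an exact 95% interval of 0.675 to 0.710, and 0.590 in replicate 2, with an interval of 0.572 to 0.608. These intervals cover counting error only and do not overlap, so the livers differed by more than counting error in this ratio. The ratio of Psph to Phgdh was 0.377 and 0.333 in replicates 1 and 2. Psph overlaps Cct6a, a chaperonin subunit gene on the opposite strand, by 452 bases. Cct6a had 153.16 and 166.72 TPM in replicates 1 and 2, and since no source used here states whether reads were counted by strand, a part of the Psph value cannot be assigned with certainty.

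In the mitochondrial and cytosolic forms of the folate enzymes, the direction of the difference depended on the step. Serine hydroxymethyltransferase, which moves a carbon unit from serine to folate and leaves glycine, is made as Shmt2 for mitochondria and Shmt1 for the cytosol. Shmt2 (ENSMUSG00000025403.4, chr10:127517123-127522444) had 64.31 and 59.81 TPM in replicates 1 and 2, and Shmt1 (ENSMUSG00000020534.10, chr11:60788104-60811718) had 27.83 and 33.31 TPM. Shmt2 was therefore 2.31-fold the level of Shmt1 in replicate 1, with an interval of 2.21 to 2.42, and 1.80-fold in replicate 2, with an interval of 1.70 to 1.89. The mean log2 ratio was 1.03 ± 0.26 (SD, n = 2), with the mitochondrial form higher in both livers and no overlap of the values. On the opposite strand, Shmt1 overlaps Smcr8 by 184 bases and Shmt2 overlaps Ndufa4l2 by 32 bases. Both neighbours stood below these enzyme genes in both livers, with Smcr8 at 2.47 and 2.95 TPM and Ndufa4l2 at 4.19 and 1.56 TPM in replicates 1 and 2.

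Mthfd1 (ENSMUSG00000021048.6, chr12:76255298-76319803) encodes a cytosolic enzyme with 3 activities, the dehydrogenase, cyclohydrolase and synthetase of folate carbon units. Mitochondria divide these activities between Mthfd2 or Mthfd2l, for the dehydrogenase and cyclohydrolase, and Mthfd1l, for the synthetase that releases formate. Mthfd2 (ENSMUSG00000005667.6, chr6:83305691-83325908) had 51.13 and 49.59 TPM in replicates 1 and 2, and Mthfd1 had 61.53 and 70.46 TPM. The Mthfd2 level was 0.831 of that of Mthfd1 in replicate 1 and 0.704 in replicate 2, with intervals of 0.801 to 0.862 and 0.673 to 0.736. Mthfd1l (ENSMUSG00000040675.13, chr10:3973118-4167081) had 15.69 and 17.57 TPM, the lowest values among the 9 genes. It stood at 0.255 of the Mthfd1 level in replicate 1 and 0.249 in replicate 2, a ratio whose spread between livers (log2 -1.99 ± 0.02) was the smallest of the pairs compared. The span of Mthfd1 shares 19090 bases with the antisense gene Gm34868 and that of Mthfd2 shares 2799 bases with Gm43890 on the same strand. Neither has a level in the gene table, so, as for Psph, a part of the Mthfd1 and Mthfd2 values cannot be assigned with certainty. In both of these pairs the cytosolic gene was higher in both livers, and the livers' values of the mitochondrial and cytosolic genes did not overlap.

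A pair of further mitochondrial forms was low. Mthfd2l, a second mitochondrial dehydrogenase-cyclohydrolase, had 2.10 and 1.71 TPM in replicates 1 and 2, so that Mthfd2 was 24.3-fold and 29-fold higher. Aldh1l2, the mitochondrial form of formyl-folate dehydrogenase, had 9 reads in replicate 1 and 2 reads in replicate 2, against 1163 and 979 reads of the cytosolic Aldh1l1. As levels these were 0.05 and 0.01 TPM for Aldh1l2 and 9.03 and 10.78 TPM for Aldh1l1. The ratio was 0.00554 in replicate 1, with an interval of 0.00253 to 0.0105, and 0.000928 in replicate 2, with an interval of 0.000112 to 0.00336. Those ratios rest on few reads of Aldh1l2, so their size is uncertain. When the 3 mitochondrial enzymes among the 9 genes were added, they held 131.13 and 126.97 TPM in replicates 1 and 2, against 89.36 and 103.77 TPM for the 2 cytosolic ones. This sum was chosen after the single values were seen.

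**Figure D2:**
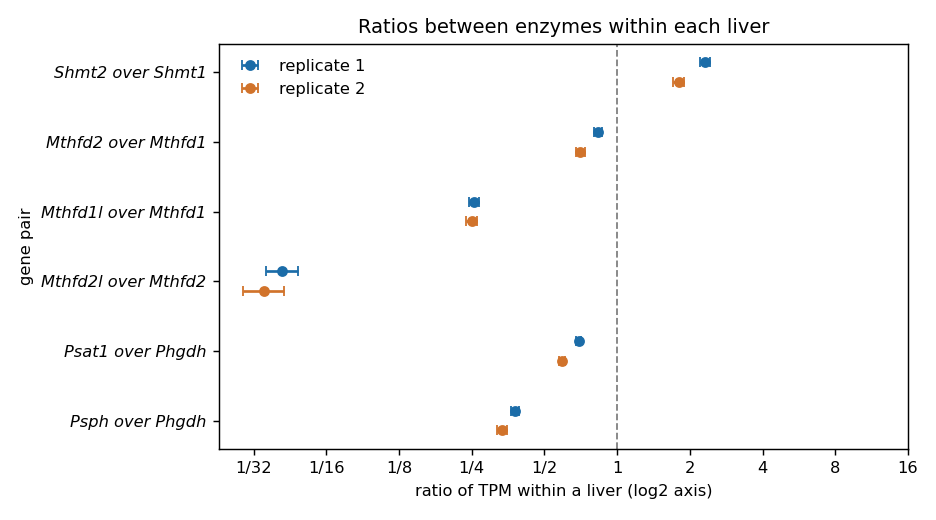
Ratio of the first-named gene's TPM to the second's within each liver, on a log2 axis, with 1 point per liver, exact 95% intervals for counting error only and a dashed line at equal levels. Shmt2 lies above Shmt1 in both livers, while Mthfd2 and Mthfd1l lie below Mthfd1.

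Tyms (ENSMUSG00000025747.8, chr5:30058202-30073617), the enzyme that methylates deoxyuridylate to make thymidylate, had 177.22 TPM in replicate 1 and 169.09 TPM in replicate 2, a mean of 173 ± 5.7 TPM (SD, n = 2). Its livers' range lay within that of Phgdh, so the highest place among the 9 genes was not resolved. M21 annotates pseudogenes named Tyms-ps and Phgdh-ps1, and neither is among the mouse gene rows. The authors' posterior SD of the gene's reads was 0 for Tyms and at most 8.51 reads for Phgdh. It could not show reads shared with these pseudogenes.

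The Tyms level depended on the transcripts to which its reads were assigned. The table holds 6 Tyms transcripts, and their names and types were taken from the later annotation GENCODE M21. M21 lists 9, of which 3 were not among those quantified and could receive no reads. Tyms-205, typed as a target of nonsense-mediated decay, held 47.08% of the gene's TPM in replicate 1 and 46.93% in replicate 2. Tyms-202, typed as a retained intron, held 39.80% and 39.11%. Tyms-201, the full-length coding transcript, held 7.83% and 8.26% of TPM, or 24.2% and 25.5% of the reads. These shares differed little between livers, while they gave a short effective length of 989.45 nucleotides in replicate 1 and 992.75 in replicate 2. Tyms-201 is 3163 nucleotides long, of which 994 lie up to the end of the stop codon and 2169 after it. All 618 bases of Tyms-205 in M21, and 577 of the 816 bases of Tyms-202, lie inside exons of Tyms-201, and the table lists Tyms-205 with 797 nucleotides. With all Tyms reads set over the length of Tyms-201, the level was 57.2 and 54.8 TPM in replicates 1 and 2, which would place it 6th of the 9 genes. Over the part of Tyms-201 up to the stop codon it was 196 and 188 TPM, which would place it 1st. In mouse cells the main Tyms mRNA is known to end at the stop codon, and whether this bears on the shares was not tested.

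The other 8 genes had a protein-coding transcript in the lead, holding at least 50% of the gene's TPM in both livers. The share of all genes with such a transcript is not given here, so this count describes these genes only. Phgdh-201 held 99.7% and 100% of Phgdh, and the leading Mthfd2 transcript held 99.47% and 99.37%, in replicates 1 and 2. Shmt2 and Mthfd1, counted among these 8, each have 1 transcript in the table. They were bound to pass the 50% mark, and no share can be given. M21 lists further transcripts of Shmt2, Mthfd1, Mthfd2 and Psph that were not among those quantified and could receive no reads. Mthfd1l was divided between the coding Mthfd1l-202, at 61.3% and 57.03%, and Mthfd1l-201, at 37.26% and 41.54%. Psph-201 held 69.46% and 68.70% and Psph-202 held 30.03% and 29.87%, both coding. The leading Psat1 transcript held 88.22% and 89.36%, and its highest retained intron transcript held 3.79% and 5.44%. A short coding Psat1 transcript held 6.2% in replicate 1 and 0% in replicate 2. It had 148.18 estimated reads in replicate 1, with a posterior SD of 58.02 reads. Another coding transcript went the other way, at 1.59% and 4.57%. The effective length of Psat1 was 2343.04 nucleotides in replicate 1 and 2432.84 in replicate 2.

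Among the 9 genes, Shmt1 had the largest difference between livers in the share of its leading transcript. Its full-length coding transcript held 83.74% of its TPM in replicate 1 and 66.93% in replicate 2, while the level of that transcript was 23.31 and 22.30 TPM. A short non-coding transcript, typed as a processed transcript, held 0.66% in replicate 1 and 18.58% in replicate 2, which is 0.18 and 6.19 TPM. It had 9.16 estimated reads in replicate 1, with a posterior SD of 36.5 reads in the authors' table, and 215.16 reads in replicate 2. Shmt1 also had an effective length of 2399.54 nucleotides in replicate 1 and 2188.62 in replicate 2. The coding transcript held 96.3% and 84.4% of the gene's reads.

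**Figure D3:**
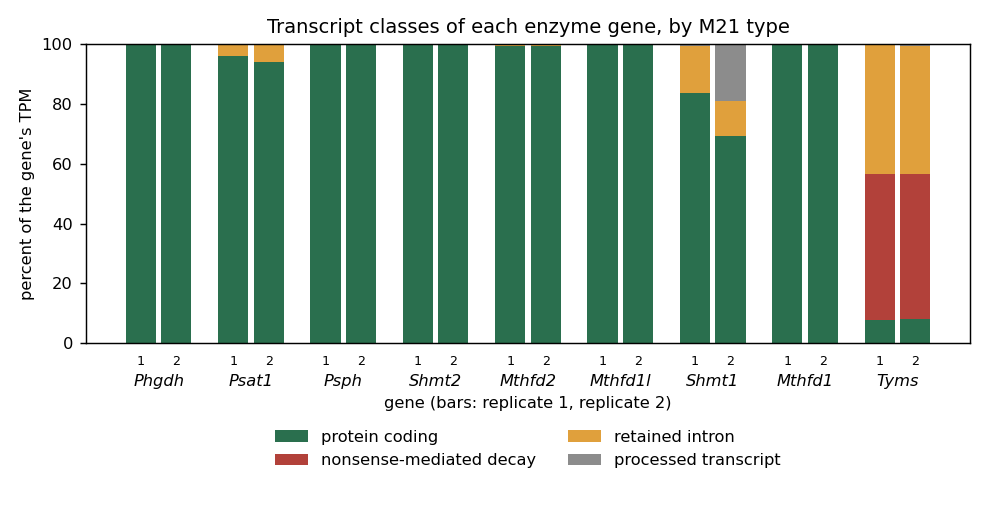
Share of a gene's TPM, in percent, assigned to transcripts of each M21 type, with replicate 1 left and replicate 2 right for each gene. Tyms is the gene with most of its TPM on transcripts that are not typed as protein coding, and Shmt1 is the gene whose bars differ most between the livers.

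Between the livers, the coefficient of variation of the 9 genes ran from 2.16% to 12.7%. None of the 9 differed by 2-fold or more, as did 0.18% of the 5544 genes with a mean of at least 10 TPM and at least 50 reads over both libraries. In TPM, 4 of 9 were higher in replicate 2 and 5 of 9 lower, beside 76.4% and 23.6% of the 5544 genes. The folds carry replicate 2 on top and use log2(TPM + 1). Across the 5544 genes the median log2 ratio was 0.09 in TPM and -0.02 in read counts scaled with TMM factors, so directions are given relative to this all-gene median. Among the 9 genes the median log2 ratio was -0.04 in TPM and -0.16 in scaled counts, where 6 of 9 were lower in replicate 2, beside 55.7% of the 5544 genes. On either scale 6 of 9 lay below the all-gene median, where by definition 50% of genes lie. The median absolute log2 ratio of the 9 genes was 0.103 in TPM, against 0.112 for the 5544 genes. In scaled counts it was 0.161, against 0.081.

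Relative to the all-gene median, Psat1 differed by -0.24 in log2 TPM and -0.19 in scaled counts, Shmt2 by -0.20 on both scales, and Psph by -0.19 and -0.20. Tyms and Mthfd2 were also lower on both scales, and Phgdh differed by -0.01 and -0.02. Mthfd1 stood 0.10 higher in TPM and 0.09 higher in scaled counts, and Mthfd1l stood 0.06 higher on both. Shmt1 had the largest unadjusted log2 ratio of the 9, at 0.25, which is 0.16 above the all-gene median in TPM but 0.03 in scaled counts, where transcript length plays no part. As a plain TPM fold, with no pseudocount and not set against the all-gene median, Psat1 was at 0.902, with a counting interval of 0.876 to 0.929, and Mthfd1 at 1.15, with an interval of 1.11 to 1.18. With 1 library per sample, differences between embryos or pools, between collection days and between library preparations cannot be told apart. The median log2 ratio of TPM + 1 was 0.10 for 5 hepatocyte markers, 0.12 for 5 red cell markers and 0.09 for 5 genes of proliferating cells, beside the all-gene median of 0.09. Summed, the hepatocyte markers had 10886 TPM in replicate 1, against 11797 TPM in replicate 2, the red cell markers 2431 and 2547 TPM, and the genes of proliferating cells 1298 and 1379 TPM. Not every marker was higher in replicate 2: in each lineage list 4 of 5 were. Hnf4a, at 9.42 and 8.65 TPM, and Alas2, at 832.68 and 812.28 TPM, were lower. All 5 genes of proliferating cells were higher.

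**Figure D4:**
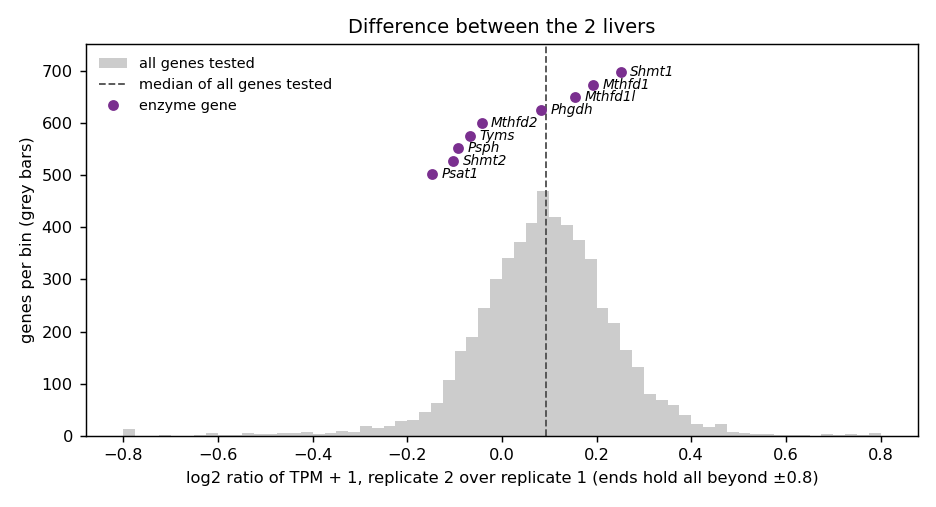
Log2 ratio of TPM + 1, replicate 2 over replicate 1, on the horizontal axis: grey bars count the 5544 genes by bin (the end bins hold all more extreme values), the dashed line is their median, 0.09, and each purple point is 1 of the 9 enzyme genes, spaced in height only for reading. Psat1 lies furthest to the left, at -0.15, and Shmt1 furthest to the right, at 0.25.

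The 8 other folate cycle genes described here had lower mean levels than each of the 9 genes. Of the 8, 7 were detected. The median level over all 8, with the undetected Aldh1l2 included, was 5.98 TPM, against 62.1 TPM for the 9 enzyme genes. The median of 9.68 TPM over all genes covers detected genes only. The highest of the 8 was Ftcd, an enzyme of histidine breakdown that passes carbon units to folate, at 16.08 and 15.74 TPM in replicates 1 and 2. Mthfs, which returns formyl-folate to the pool, had 11.29 and 9.32 TPM. Mtr, the methionine synthase, had 5.94 and 7.01 TPM. Mtrr, which reactivates Mtr, had 5.25 and 5.61 TPM, and Mtfmt, which formylates the mitochondrial initiator tRNA, had 4.99 and 5.99 TPM. Of 7 genes of folate uptake and retention, 6 were detected. Among them Fpgs, which adds the glutamate tail that keeps folate in cells, had 17.52 and 21.01 TPM, and the carrier Slc19a1 had 11.11 and 15.67 TPM. Ggh, which removes that tail, had 9.61 and 10.84 TPM. The folate receptor Folr1 had 0 reads in replicate 1 and 3 reads in replicate 2.

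The glycine cleavage system, which draws carbon units from glycine in mitochondria, was detected in all 4 of its genes at unequal levels. Dld, a subunit it shares with other dehydrogenase complexes, had 73.73 and 76.81 TPM, and Gcsh, the carrier protein, had 66.35 and 68.95 TPM. Gldc, the decarboxylase, had 12.78 and 17.08 TPM, and Amt, the aminomethyltransferase, had 5.86 and 6.33 TPM. All 4 were higher in replicate 2, as were 76.4% of the 5544 genes. Of 9 serine and glycine transporters, 8 were detected. The highest were the mitochondrial glycine carrier Slc25a38, known for its need in heme synthesis, at 96.03 and 111.53 TPM, the neutral amino acid carrier Slc1a5, at 50.47 and 55.36 TPM, and the mitochondrial serine carrier Sfxn1, at 50.19 and 54.54 TPM. Slc7a10, a serine transporter known from brain, had 0.61 and 0.22 TPM. Of 8 genes of serine breakdown and use, 6 were detected, and the median over all 8, undetected genes included, was 8.58 TPM. Cth and Cbs, which carry serine into cysteine, had 26.69 and 24.98 TPM and 12.46 and 10.61 TPM, and Sptlc2, of sphingolipid synthesis, had 22.59 and 22.76 TPM. Sds, the serine dehydratase known from adult liver, had 0.17 and 0.13 TPM.

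Of 8 genes listed for thymidylate and other DNA precursors, 7 were detected, and the median over all 8 was 118 TPM. This median was above that of the 8 folate cycle genes, but Tk2, Dctd and Tymp had lower mean levels than Ftcd. Rrm2 and Rrm1, the subunits of ribonucleotide reductase, had 316.54 and 329.30 TPM and 141.31 and 149.66 TPM in replicates 1 and 2. Dtymk, which phosphorylates thymidylate, had 120.99 and 123.05 TPM, Dut, which makes deoxyuridylate, had 111.95 and 125.49 TPM, and Tk1, the salvage kinase of dividing cells, had 112.91 and 121.15 TPM. The mitochondrial salvage kinase Tk2 had 4.34 and 3.17 TPM, Dctd, a deaminase that also feeds deoxyuridylate, had 6.05 and 6.18 TPM, and Tymp, which breaks thymidine down, had 0.42 and 0.30 TPM. In purine synthesis, which takes formyl-folate, 11 of 11 genes were detected with a median of 25.01 TPM. Paics had 140.28 and 151.47 TPM, Impdh2 had 85.53 and 97.35 TPM, Gart had 38.19 and 42.85 TPM, and Impdh1 was lowest, at 4.79 and 4.60 TPM.

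**Figure D5:**
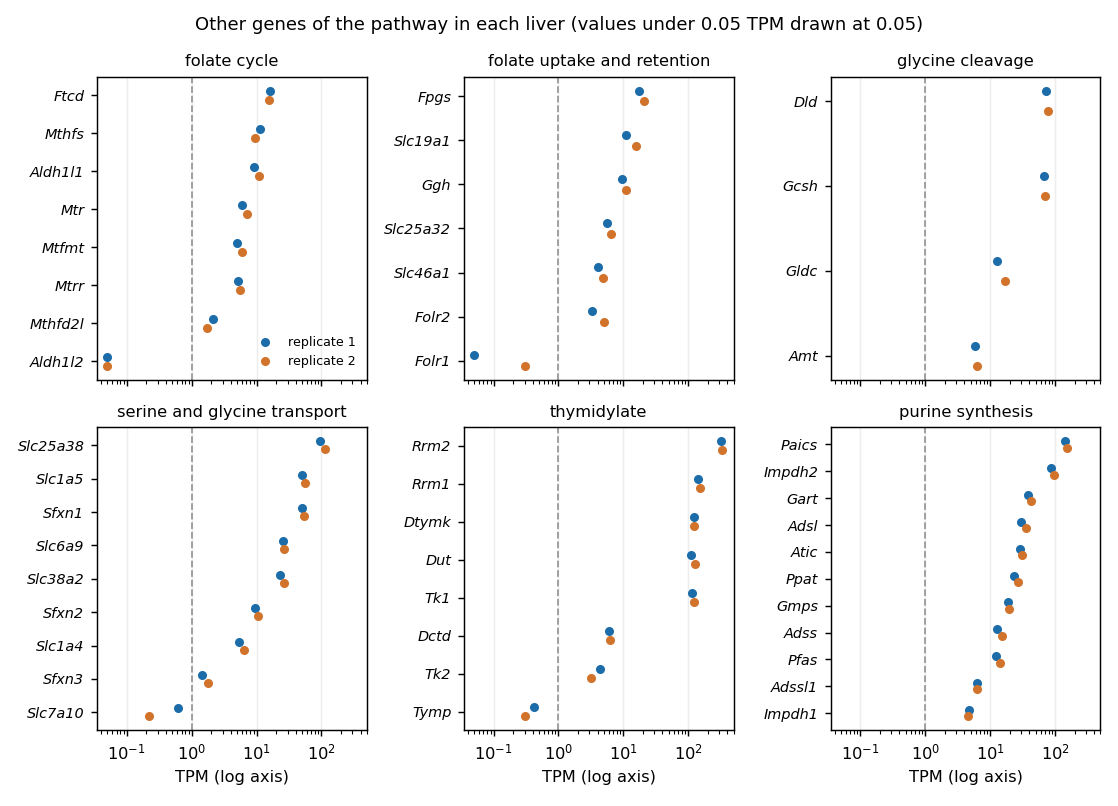
Level of each gene of 6 pathway lists in TPM on a log axis, with 1 point per liver, a dashed line at 1 TPM, and values under 0.05 TPM drawn at 0.05. Aldh1l2, Folr1, Slc7a10 and Tymp lie left of the line in both livers, and 5 genes of the thymidylate list lie above 100 TPM in both.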

How the data were processed

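Total RNA from 2 embryonic livers was sequenced, 1 library each. Expected counts, the estimated reads per gene, TPM and FPKM were deposited by the authors in gene and transcript tables with mm10 and GENCODE M4 named in the description deposited beside them; how reads were aligned and counted is not given in the sources used. The percent of a gene's TPM per transcript was deposited by the authors too; FPKM served only as an alternative for the gene ratios. Gene symbols came from GENCODE M21 by identifier, as did transcript names and types. The 9 genes and all other lists were chosen with earlier results of these data known. All 9 genes are named; from other lists the 3 highest and the lowest by mean TPM, with every gene of the thymidylate and glycine cleavage lists and 8 of the folate cycle; other folate cycle genes are not reported here, so values for that list cover these 8. Gene pairs were compared as TPM ratios with exact 95% binomial intervals, and levels have exact Poisson intervals. Both cover counting error only. Means are given ± SD over 2 livers; no test was made within 1 group. Python 3.11.15, scipy 1.17.1, edgeR 4.0.16 (TMM factors) and DESeq2 1.42.0 (size factors) were used, with expected counts rounded for both kinds of factor. Log2 ratios between livers used a pseudocount of 1 TPM, and plain folds used none. Scripts were tested on simulated data. Alternatives covered scaling, pseudocount, filters, transcript choice and each library alone.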

Additional observations from a re-analysis of the deposited data

How the results depend on the processing

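No called direction reversed among the 24 results and 114 alternatives computed, but levels, shares and counts of genes could not reverse. Only log2 ratios could, and those between enzymes in other units were judged as means over both livers. For levels, the share and ratios between enzymes, either library alone lies within the spread of the 2 by construction. FPKM ratios repeat TPM ratios apart from rounding. In 25 alternatives the value changed by more than a set limit. This limit was the spread between the livers or, for counts of genes, 1.5 times. In expected counts, which ignore length, the mean log2 ratio was -1.09 for Mthfd2 to Mthfd1, -1.86 for Mthfd1l to Mthfd1, -0.23 for Psat1 to Phgdh and -2.17 for Psph to Phgdh. For the sum of the mitochondrial to that of the cytosolic enzymes the mean was 0.064, but the livers differed in direction. The mitochondrial sum was higher in replicate 1 and the cytosolic sum in replicate 2. Replicate 2 had 3834, 2848 and 1794 reads of Shmt2, Mthfd2 and Mthfd1l, against 2119 and 6603 of Shmt1 and Mthfd1. With only the most used transcript of each gene it was 1.44 for Shmt2 to Shmt1, -2.75 for Mthfd1l to Mthfd1, -0.82 for Psat1 to Phgdh and -2.03 for Psph to Phgdh. A pseudocount of 1 TPM gave -1.92 for Mthfd1l to Mthfd1, -4.15 for Mthfd2l to Mthfd2 and -3.40 for Aldh1l2 to Aldh1l1, and the posterior mean TPM gave -5.17 for that last pair. Tyms was at 56.0 TPM over the length of Tyms-201 and 192 TPM up to its stop codon, both chosen after seeing the data. The share of the 9 genes was 0.136% without globin genes, 0.0925% of protein-coding nuclear genes and 0.154% of expected counts. Their median log2 ratio between livers was -0.16 with TMM factors and -0.16 with DESeq2 size factors. The genes past 2-fold between livers numbered 10, against 6 with TMM or DESeq2 factors or a pseudocount of 5, 39 when the minimum mean was 1 TPM, and 143 without any minimum. Depth limits Aldh1l2 and Folr1. No paired analysis was possible because there is 1 group.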

Other observations

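The methionine cycle, which receives carbon units from folate to make the methyl donor of the cell, was detected in 9 of 9 listed genes with a median of 48.9 TPM. Mat2a, the methionine adenosyltransferase known from dividing and fetal cells, had 103.82 and 115.90 TPM in replicates 1 and 2. Mat1a, its adult liver counterpart, was added after its values were seen, and had 0.158 of the Mat2a level in replicate 1 and 0.167 in replicate 2. Bhmt, which remethylates homocysteine with betaine, had 63.72 and 73.85 TPM, and Ahcy, which clears the product of methylation, had 50.62 and 54.40 TPM. Mtap, which recycles the sulfur compound left by polyamine synthesis, was lowest, at 16.63 and 18.06 TPM.

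Among 6 genes listed for the regulation of serine synthesis, all 6 were detected. Asns, asparagine synthetase and a known target of Atf4, had 285.34 and 259.84 TPM, while the transcription factor Atf4 had 87.58 and 104.32 TPM. Myc had 43.36 and 45.05 TPM. The demethylase gene Kdm4c had 3.36 and 3.99 TPM.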
